A study of Saccharomyces cerevisiae with 12 samples.

Results

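The phosphate-repressible phosphatases of Saccharomyces cerevisiae are enzymes that release phosphate from organic molecules and whose genes are switched on when phosphate runs short. The 5 genes PHO5, PHO11, PHO12, PHO8 and PHM8 were chosen by name, and their log2 intensities were followed across 2 strains and 2 media on Affymetrix Yeast Genome 2.0 arrays. The platform's annotation names 1 probe set each for PHO5, PHO11, PHO8 and PHM8 and 0 for PHO12, so 4 of the 5449 yeast genes measured carry the results. The PHO11 probe set has the suffix that Affymetrix gives to probe sets shared by near-identical transcripts. PHO11 and PHO12 are near-identical genes at the ends of different chromosomes, and the annotation does not say which transcripts the probe set reads, so its value stands for PHO11 and possibly for PHO12. The genes were chosen with their higher level in the mutant without ethanol already known. Their values in that difference, and in the interaction that contains it, are therefore a description with no p-value. How many of them the fit called there is shown only beside the share of all genes called, and is no evidence about them.

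All cultures were of BY4741, a common haploid a-type laboratory yeast whose chromosomes hold no working HIS3, LEU2, MET17 or URA3. On the plasmid p416-Tefmut2 they carried either SPT15 or its mutant form spt15-300, and the TATA-binding protein is the product of SPT15. Cells with the first plasmid are the wild type below, as in the labels, and those with the second the mutant. Because the chromosomal SPT15 was not reported as removed, the plasmid copy is taken as an addition to it. Each strain grew at 30 °C in closed tubes of YSC medium without uracil until the optical density was near 0.4. One medium had 0% ethanol with glucose at 20 g/L, and the other had 5% ethanol with glucose at 60 g/L. Ethanol and glucose changed together and cannot be told apart, and the latter is called the ethanol medium. Each group had 3 cultures on 3 arrays, which the design text calls biological triplicates, but array 2 of the mutant with ethanol was titled an outlier and left out, so that group rests on 2 arrays. Total RNA of whole cultures was measured, so fewer cells that express a gene and less RNA per cell cannot be told apart.

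When phosphate is plentiful, the cyclin Pho80 and the kinase Pho85 phosphorylate the transcription factor Pho4 and keep it out of the nucleus. When phosphate is scarce, the inhibitor Pho81 stops the kinase, and Pho4 with its partner Pho2 turns on the PHO genes. Their products scavenge phosphate at the cell surface (the acid phosphatases), in the vacuole (the alkaline phosphatase Pho8) and inside the cell (Phm8). PHO5 is also a classic case of a promoter whose nucleosomes are removed on induction and whose TATA box is bound by the protein that SPT15 encodes.

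The 11 arrays kept had yeast medians between 10.46 and 10.52 on the log2 scale. The 95th percentile of Schizosaccharomyces pombe probe sets, which served as background, lay between 7.10 and 7.36 on these arrays. Each member was above that level on all 11 arrays. Of genes of a-cell identity, MFA1, MFA2, STE2, BAR1 and STE6 read 9.79 to 13.45 as group means, while the alpha-cell genes MF(ALPHA)1, MF(ALPHA)2 and STE3 read 7.49 to 8.51 and SAG1 read 9.90 to 10.06. Of the 4 marker genes without a working chromosomal copy, MET17 read 7.68 to 7.90 as group means, so a reading near that level need not come from a transcript. LEU2 read 7.99 and 8.07 without ethanol and 9.65 and 10.21 with it. HIS3 read 11.31 to 11.81, far above background, and URA3, which the plasmid supplies, 13.16 to 13.53, so a missing working copy did not go with a low reading for every marker. As a sign of RNA quality, 8 control genes carry probe sets at either end of the transcript, and the median excess of the 3' over the 5' reading on the log2 scale was lowest in the mutant without ethanol, at 0.240 to 0.266. The wild type without ethanol had 0.310 to 0.359. With ethanol the range was 0.361 to 0.435 for the wild type arrays and 0.379 to 0.400 for the mutant arrays. It thus moved with the groups, and its part in the results was not tested.

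PHO5 encodes the main secreted acid phosphatase, which frees phosphate from substrates outside the plasma membrane. It was low in 1 group and high in the other 3. Its log2 intensities were 9.14, 9.09 and 9.30 in the wild type without ethanol and 11.63, 11.71 and 11.67 in the mutant without ethanol. With ethanol they were 11.75, 11.57 and 11.54 in the wild type and 11.75 and 11.49 in the mutant. The 3 wild type arrays without ethanol stood apart from all the others, and the other 3 groups overlapped. The group means rose in order from 9.18 in the wild type without ethanol to 11.62 in the mutant with ethanol, 11.62 in the wild type with ethanol and 11.67 in the mutant without ethanol, and no neighbours among the last 3 differed beyond their spread. The mutant without ethanol read about as high as the wild type did in the ethanol medium: the second minus the first was -0.05 on the log2 scale (95% interval -0.24 to 0.14). This difference, given below for the other probe sets too, uses the mutant arrays without ethanol. Choosing genes high on those arrays favours a lower value here. These differences and their intervals are therefore descriptions, not those of unselected genes.

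PHO11 encodes another secreted acid phosphatase, and its probe set behaved like that of PHO5 except in the mutant with ethanol. It read 9.42, 9.38 and 9.57 in the wild type without ethanol and 10.92, 10.88 and 10.80 in the mutant without ethanol. With ethanol it read 10.84, 10.67 and 10.63 in the wild type and 10.26 and 10.39 in the mutant. The mutant was thus above the wild type in 1 medium and below it in the other, with no overlap of arrays in either. In the order of the group means, the wild type without ethanol (9.46) was lowest, then the mutant with ethanol (10.32), the wild type with ethanol (10.71) and the mutant without ethanol (10.87). The last 2 of these overlapped, and their difference, the wild type with ethanol minus the mutant without, was -0.16 (95% interval -0.31 to 0.00088).

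PHO8 encodes the repressible alkaline phosphatase of the vacuole, which is made as a precursor and cut to its active form by vacuolar proteases. Its log2 intensities rose in steps that followed the medium more than the strain. They were 10.95, 10.96 and 10.83 in the wild type and 11.45, 11.52 and 11.47 in the mutant without ethanol. They were 12.29, 12.33 and 12.34 in the wild type and 12.34 and 12.36 in the mutant with ethanol. The 3 steps of the order were the wild type without ethanol (10.91), the mutant without ethanol (11.48) and both strains with ethanol (12.32 and 12.35), whose arrays overlapped. Unlike for PHO5, the wild type with ethanol lay above the mutant without ethanol, by 0.84 (95% interval 0.75 to 0.93).

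PHM8 encodes an intracellular phosphatase that acts on lysophosphatidic acid and on nucleoside monophosphates. The arrays of its 4 groups did not overlap, but the share of all genes with 4 separate groups was not counted. Shares without overlap are given below for single comparisons only. It read 8.13, 8.13 and 8.23 in the wild type without ethanol, 9.65, 10.02 and 9.98 in the mutant without ethanol, 10.20, 10.72 and 10.60 in the wild type with ethanol, and 11.08 and 11.29 in the mutant with ethanol. The order of the means was 8.16, 9.88, 10.51 and 11.18 in the same sequence. The lowest group read only a little above MET17 and LEU2, which read 7.82 and 7.99 in that group and have no working chromosomal copy, so the fold over that group may be understated. The wild type with ethanol lay above the mutant without ethanol by 0.63 (95% interval 0.32 to 0.93).

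**Figure D1:**
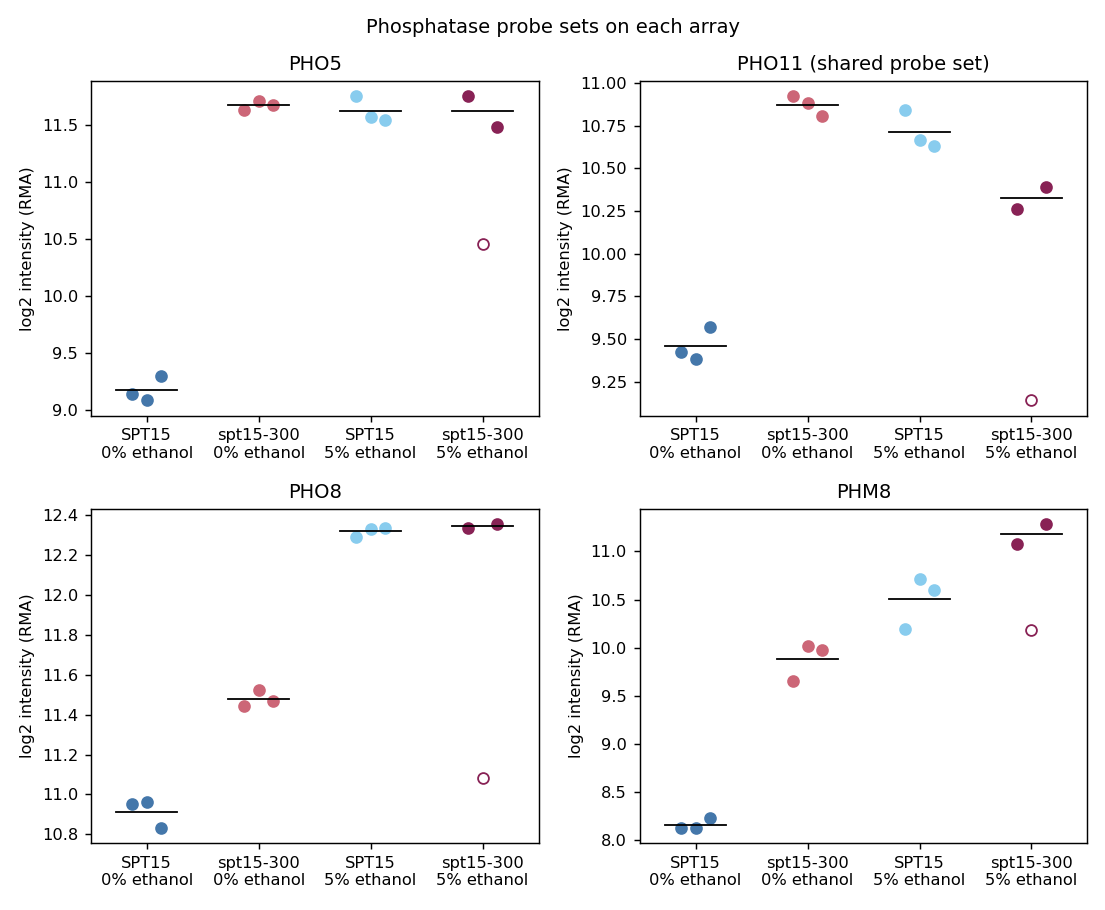
Log2 intensity (vertical axis, each panel with its own range) of the PHO5, PHO11, PHO8 and PHM8 probe sets on every array, by strain and medium (horizontal axis). Filled points are arrays used, lines are group means over them, and the open point is the array titled an outlier; PHO5 and PHO11 were lowest in the wild type without ethanol, PHO8 rose in 3 steps and PHM8 in 4.

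Without ethanol, all 4 probe sets were higher in the mutant, the comparison on which the genes were chosen. PHO5 was 5.64-fold higher, a log2 difference of 2.49 (SE 0.083), which was rank 1 of 5449 genes from the highest. PHM8 was 3.29-fold higher (1.72, SE 0.14, rank 6) and PHO11 2.66-fold (1.41, SE 0.070, rank 10). PHO8 was 1.48-fold higher (0.56, SE 0.042, rank 92). The fit called 4 of 4 higher and their arrays did not overlap, beside 8.26% of all genes called higher and 8.07% lower, and 15.9% without overlap in the higher and 26.7% in the lower direction. Nothing is read from these counts, since this comparison chose the genes.

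In the ethanol medium the strains differed in PHO11 and PHM8, in opposite directions, while no difference was called for PHO5 and PHO8. This comparison shares no array with the one that chose the genes. PHM8 was 1.60-fold higher in the mutant (log2 difference 0.67, SE 0.15, limma adjusted p = 0.0264), rank 18 of 5449. PHO11 was lower in the mutant (-0.39, SE 0.078, limma adjusted p = 0.0188). Both mutant arrays lay above all 3 wild type arrays for PHM8 and below them for PHO11. PHO5 differed by -0.0029 (95% interval -0.21 to 0.20, limma adjusted p = 0.984) and PHO8 by 0.03 (95% interval -0.08 to 0.13, limma adjusted p = 0.723). Thus 1 of 4 was called higher, beside 5.73% of all genes, and 1 of 4 lower, beside 5.98%. Over all genes, 18.5% had every mutant array above the wild type arrays and 21.5% had every one below. Both calls ended without either mutant array (limma adjusted p = 0.0725 without replicate 1 and 0.0628 without replicate 3 for PHO11, and 0.0524 and 0.165 for PHM8). They also ended when only the groups compared were fitted (limma adjusted p = 0.168 for PHO11 and 0.183 for PHM8), with unchanged differences.

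In the wild type, the ethanol medium went with higher readings of all 4 probe sets. This comparison shares the 3 wild type arrays without ethanol with the one that chose the genes. Choosing genes low on those arrays favours a rise here, so the p-values, ranks and counts are not those of unselected genes. PHO5 rose 5.44-fold (log2 difference 2.44, SE 0.083, limma adjusted p = 1.81e-08) and was rank 10 of 5449 genes from the highest. PHM8 rose 5.08-fold (2.34, SE 0.14, limma adjusted p = 5.31e-07, rank 12), PHO8 2.65-fold (1.41, SE 0.042, limma adjusted p = 8.86e-09, rank 72) and PHO11 2.39-fold (1.26, SE 0.070, limma adjusted p = 4.04e-07, rank 99). The 4 of 4 called higher stand beside 31.7% of all genes called higher in this comparison, in which 29.0% were called lower and 60.8% in either direction. The arrays of all 4 did not overlap, as for 34.3% of all genes in the higher and 32.5% in the lower direction.

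In the mutant, the same change of medium split the group. This comparison shares the 3 mutant arrays without ethanol with the one that chose the genes. Choosing genes high on those arrays favours a fall here, so the p-values and counts are not those of unselected genes. PHM8 rose 2.46-fold (log2 difference 1.30, SE 0.15, limma adjusted p = 8.06e-05) and PHO8 1.83-fold (0.87, SE 0.047, limma adjusted p = 5.60e-07). PHO11 fell by 0.54 on the log2 scale (SE 0.078, limma adjusted p = 0.000277), with both ethanol arrays below all 3 without ethanol. No change was called for PHO5, which differed by -0.05 (95% interval -0.26 to 0.15, limma adjusted p = 0.642). The 2 of 4 called higher stand beside 33.8% of all genes, and the 1 of 4 called lower beside 28.7%, with 62.5% called in either direction. The same 3 probe sets had no overlap of arrays, beside 40.8% of all genes in the higher and 35.8% in the lower direction.

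Subtracting the wild type's response to the medium from the mutant's gave -2.50 (SE 0.12) for PHO5, -1.80 (SE 0.10) for PHO11, -1.04 (SE 0.20) for PHM8 and -0.54 (SE 0.063) for PHO8 on the log2 scale. The fit called 4 of 4 lower, beside 0.826% of all genes called lower, 0.385% called higher and 1.21% in either direction, and nothing is read from this, since the interaction contains the comparison that chose the genes.

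**Figure D2:**
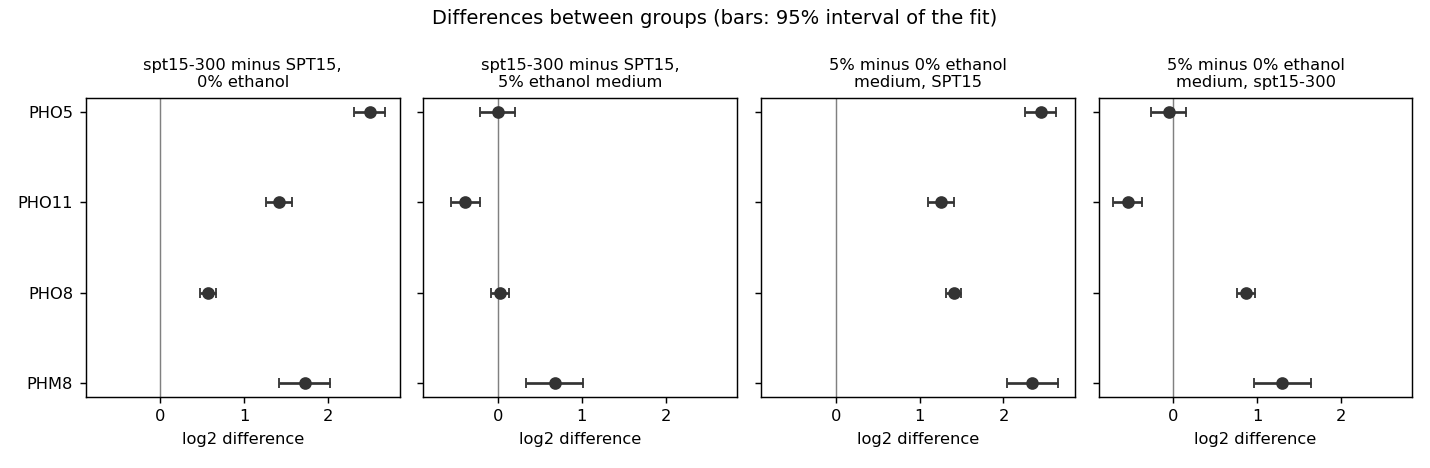
Log2 difference (horizontal axis) of each phosphatase probe set in the 4 comparisons between groups; points are estimates of the fit and bars their 95% intervals. The intervals of PHO5 include 0 for the strains in the ethanol medium and for the medium in the mutant, and PHO11 lies below 0 in both.

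Related acid phosphatase genes had other profiles. PHO3, which is the neighbour of PHO5 in the RefSeq annotation and encodes an acid phosphatase that phosphate does not repress, read 12.57 ± 0.031 in wild type and 12.52 ± 0.044 in mutant cells without ethanol (SD, n = 3 each). It fell in the ethanol medium, by 0.69 on the log2 scale in the wild type (SE 0.041, limma adjusted p = 7.41e-07) and by 0.74 in the mutant (SE 0.046, limma adjusted p = 1.45e-06), where PHO5 rose by 2.44 and differed by -0.05. DIA3, a gene related to the acid phosphatases, was near background without ethanol: the wild type read 7.50 ± 0.11 and the mutant 7.16 ± 0.15 (SD, n = 3 each). In the mutant without ethanol only 1 of 3 arrays lay above the S. pombe percentile of that array, so no strain difference is given for it there. It rose in the ethanol medium by 1.13 in wild type cells (limma adjusted p = 2.26e-06). In the mutant it rose by 1.48 (limma adjusted p = 1.20e-06), a difference that background may understate.

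**Figure D3:**
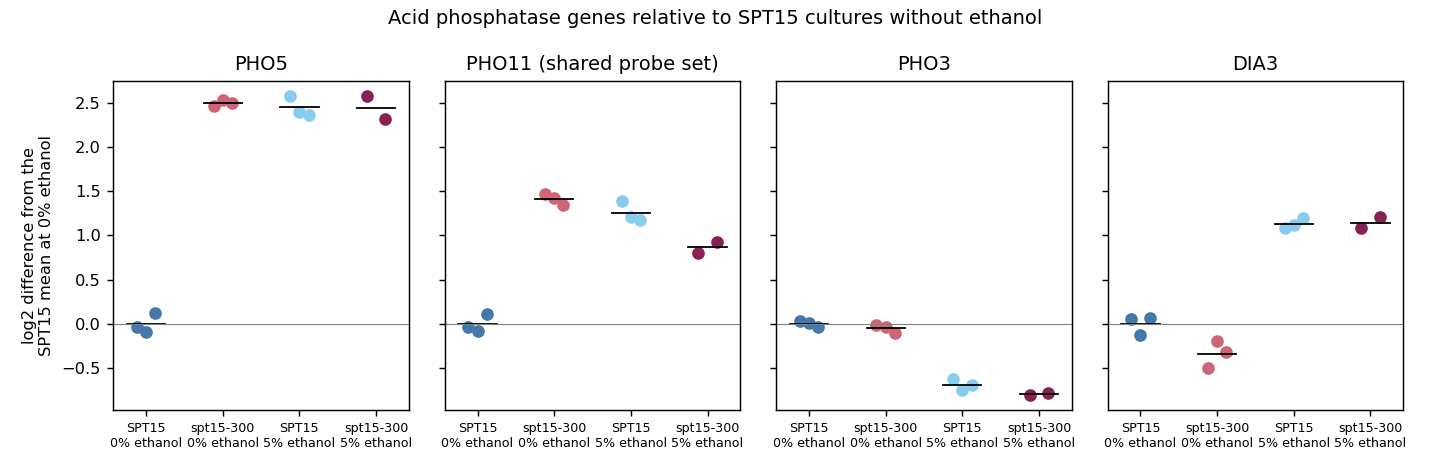
Log2 intensity of the acid phosphatase genes PHO5, PHO11, PHO3 and DIA3 on the 11 arrays used, as the difference from each gene's mean in the wild type (SPT15) without ethanol (vertical axis), by strain and medium; lines are group means. PHO3 falls in the ethanol medium in both strains, and DIA3 rises there from a level near background.

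SDT1 is the paralog of PHM8 and encodes a pyrimidine nucleotidase. It was higher in the mutant without ethanol by 0.41 (SE 0.088, limma adjusted p = 0.0125, and 0.0529 without replicate 2 of the wild type), where PHM8 was higher by 1.72. SDT1 with ethanol read 10.59 ± 0.19 (SD, n = 3) in wild type and 10.51 ± 0.079 (n = 2) in mutant cells and was not called. Among 9 related phosphatases, 2 were called higher and 1 lower in the mutant without ethanol, beside 8.26% and 8.07% of all genes. The 1 called lower was DIA3, at background, and the median log2 difference was -0.05, against -0.03 over all genes. The glycerol phosphatase GPP2 was the other that rose, by 0.66 (limma adjusted p = 1.25e-05). With ethanol, where 5.73% of all genes were called higher and 5.98% lower, 1 was higher, GPP2 by 0.28 (limma adjusted p = 0.00911, and 0.0741 without replicate 3 of the mutant with ethanol), and 1 lower, the phosphatase LTP1 by 0.37 on the log2 scale (limma adjusted p = 0.0110, and 0.0751 without that array). Both calls ended with only the groups compared (limma adjusted p = 0.168 for GPP2 and 0.171 for LTP1).

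Of 9 genes that salvage nucleotides, the route into which Phm8 feeds, 2 were higher, FUR1 and RBK1, and 1 lower, PNP1, in the mutant without ethanol (median 0.09), beside 8.26% and 8.07% of all genes. The call of FUR1 ended without replicate 2 of the wild type (limma adjusted p = 0.0552), and that of RBK1 when any of 5 arrays was left out (0.0888 to 0.136). In the wild type 4 rose and 5 fell with the ethanol medium (median -0.28), where 31.7% of all genes rose and 29.0% fell, among them FUR1, a uracil phosphoribosyltransferase, which fell by 0.97 (limma adjusted p = 2.36e-05). PNP1, the purine nucleoside phosphorylase, rose by 0.27 (limma adjusted p = 4.04e-05). Of 8 vacuolar genes, mostly hydrolases that share their compartment with Pho8, 1 was higher in the mutant without ethanol (median 0.01), beside 8.26% of all genes, the protease gene PRB1 by 0.33 (limma adjusted p = 0.00368). In the wild type 5 rose and 1 fell with the ethanol medium (median 0.24), beside the same 31.7% and 29.0%: PRB1 rose by 0.75, the aminopeptidase gene APE1 by 0.73 and PEP4, the protease that matures other vacuolar hydrolases, by 0.29 (limma adjusted p = 2.95e-06, 9.00e-06 and 0.000649).

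Other genes of the phosphate pathway numbered 25, of which 23 were measured. They were listed with earlier results of these data known, so their counts and p-values are no independent evidence. Without ethanol 9 were higher and 0 lower in the mutant by limma (median 0.10), beside 8.26% and 8.07% of all genes; at an unadjusted p under 0.05 4 were lower. They comprise 3 of 8 genes listed under transport, 4 of 8 listed under polyphosphate, PHM6 among them, and 2 of 7 listed as regulators. The transporter gene PHO84 was higher by 2.18, the polyphosphate polymerase subunit gene VTC3 by 1.14, PHM6 by 1.85 and the inhibitor gene PHO81 by 0.50 (limma adjusted p = 1.69e-07, 1.56e-06, 3.41e-05 and 9.82e-05). The activator gene PHO4 was higher by 0.26 (limma adjusted p = 0.0171), but it was no longer called once array 3 of the wild type (0.0547) or array 2 or 3 of the mutant (0.0615 and 0.0589) was dropped. In the ethanol medium 1 was higher and 1 lower, beside 5.73% and 5.98% of all genes: GIT1, a transporter of glycerophosphoinositol, by 0.40 and DDP1, a polyphosphatase, by -0.17 (limma adjusted p = 0.0168 and 0.0237). Neither was called with only the groups compared (limma adjusted p = 0.168 and 0.218) or without replicate 2 of the wild type (0.0532 and 0.0650) or replicate 1 of the mutant with ethanol (0.0650 and 0.0688). For DDP1 the same held when wild type array 1 (0.0516) or mutant array 3 (0.111) with ethanol was dropped.

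With the ethanol medium, 12 of these 23 genes rose and 5 fell in each strain, with a median of 0.19 for the wild type and 0.11 for the mutant. Of all genes 31.7% rose and 29.0% fell in the wild type, and 33.8% rose and 28.7% fell in the mutant. GIT1 rose by 3.23 in wild type and 3.53 in mutant cells (limma adjusted p = 8.41e-10 and 1.06e-09). Without ethanol the wild type read 7.64 ± 0.044 and the mutant 7.74 ± 0.10 (SD, n = 3 each), so unlike PHO5 it was not high in the mutant there. These readings are close to those of MET17, so both differences may be understated. PHO81 rose by 1.09 and 0.71 (limma adjusted p = 6.63e-08 and 3.01e-06), and PHO4 fell by 0.24 in the wild type and by 0.28 in the mutant (limma adjusted p = 0.00539 and 0.00422), in the medium in which PHO5 was high in both strains. The low-affinity transporter gene PHO90 fell by 1.30 and 1.05 (limma adjusted p = 1.38e-05 and 0.000145). Of 13 genes of chromatin factors studied at the PHO5 promoter, 1 rose and 3 fell with the ethanol medium in the wild type. In the mutant 6 rose and 2 fell, beside the shares of all genes given above. Among those that rose in the mutant were SNF2 by 0.51 and GCN5 by 0.23 (limma adjusted p = 0.000296 and 0.00222). Between the strains without ethanol 0 of the 13 were called by limma (median -0.05), where 16.3% of all genes were called. At an unadjusted p under 0.05 2 passed. With ethanol 1 was higher in the mutant, the remodeller subunit gene SNF2 (0.28, limma adjusted p = 0.0408), beside 5.73% of all genes. That call ended when any of 9 of the 11 arrays was left out, with a replicate block (limma adjusted p = 0.0731), with array weights (0.0566) and with only the groups compared (0.221).

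**Figure D4:**
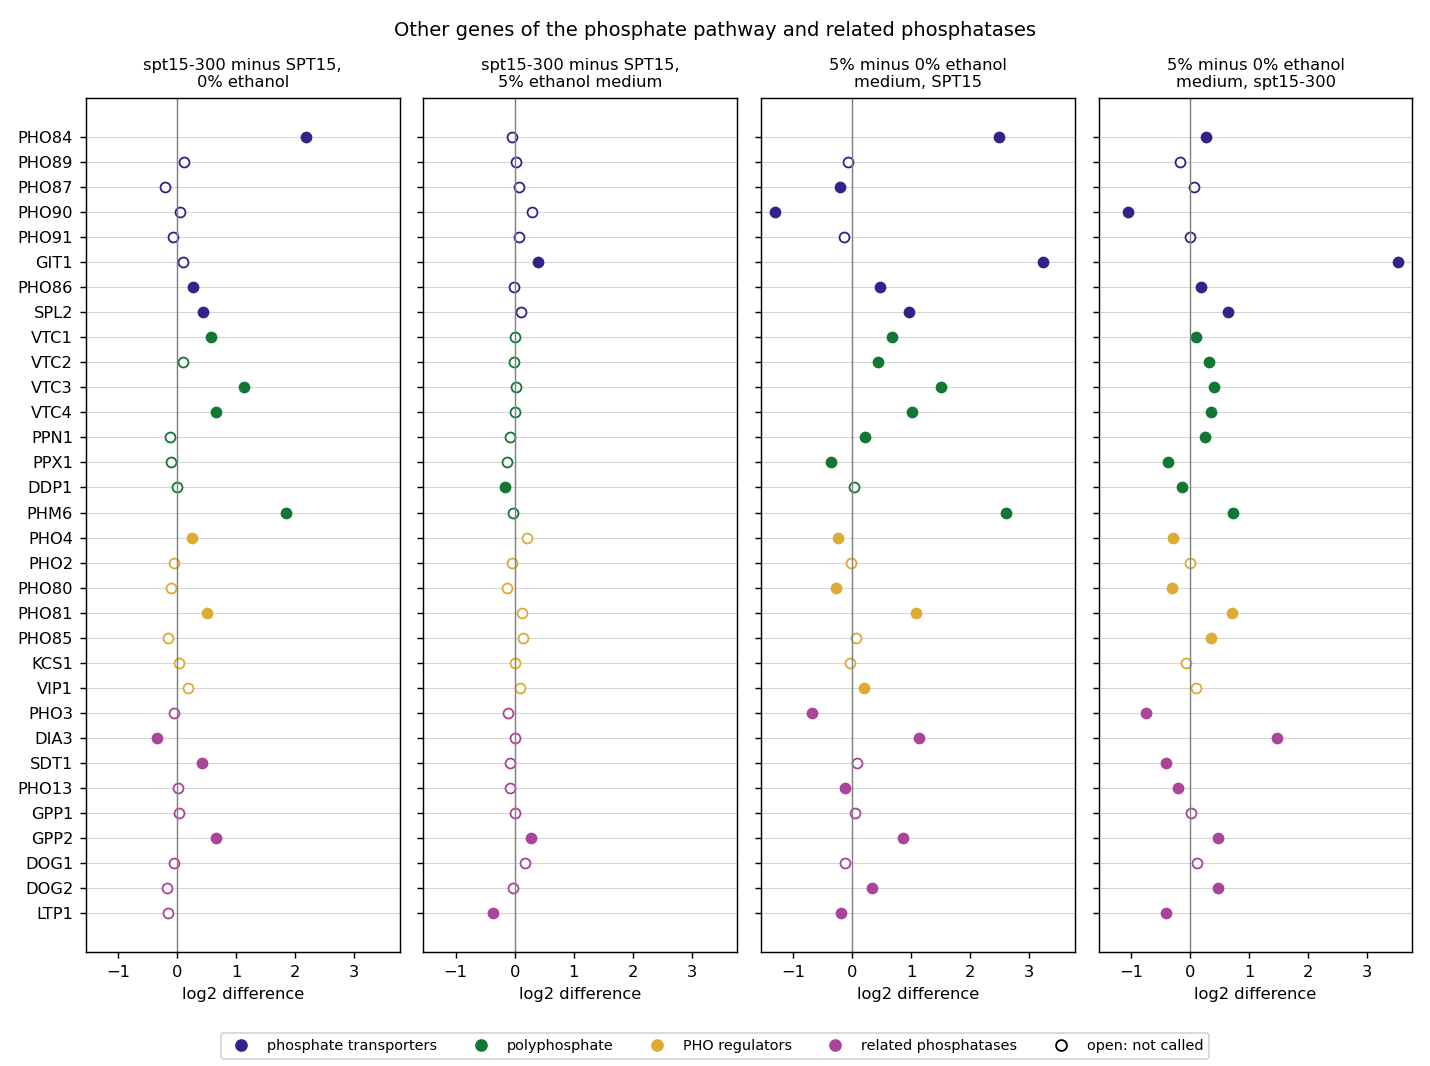
Log2 difference (horizontal axis) of the measured phosphate transporter, polyphosphate, regulator and related phosphatase genes in the 4 comparisons between groups; filled points were called at an adjusted p under 0.05 and open points were not. PHO84, PHM6 and VTC3 lie furthest to the right between strains without ethanol, and GIT1 does for the medium in both strains.

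Genes with the profile most like each phosphatase were ranked by Pearson's correlation of the log2 values over the 11 arrays, among 1393 genes whose group means span at least 0.5. The arrays share groups, so these are descriptions of profiles. PHO5 was most like PHO84 (0.989), VTC1 (0.984) and MCR1, a mitochondrial reductase (0.962), and PHO11 like PHO84 (0.914), YLR225C (0.904) and VTC1 (0.899). PHO8 was most like the heat shock gene HSP26 (0.994), SPS4 (0.993) and SPL2, an inhibitor of low-affinity phosphate uptake (0.991). PHM8 was most like GPM2, a homolog of phosphoglycerate mutase (0.996), SOD2, the mitochondrial superoxide dismutase (0.995), and YKL107W (0.994), which read 6.56 to 7.80 as group means and so lay near background.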

How the data were processed

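Total RNA of 12 cultures was measured on 12 arrays. For each array the authors deposited an intensity for 10928 probe sets, and RMA is the tool that the submitters' processing notes name. Its version, its settings and which arrays entered 1 run are not stated in the labels or notes. The intensities are on a linear scale (6.16 to 22228.3), so log2 was taken here with no pseudocount. Arrays give no depth, and their number limits the precision.

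Of 7245 annotated probe sets, 5498 matched single genes of the RefSeq table of the R64 assembly. For 47 genes with several probe sets the brightest was used, which left 5449. The 1746 probe sets of other genes were taken as S. pombe. A linear model of 4 group means was fitted in R 4.3.3 with limma 3.58.1 (lmFit, eBayes, 7 residual degrees of freedom and 2.73 from the prior, Benjamini-Hochberg over all genes, threshold 0.05), tested on simulated data. Members and lists were chosen with earlier results of these data known, so counts and p-values of list genes are no independent evidence. Named were all members, the 3 genes most like each member, and some list genes. The list genes came from the 4 smallest p among called genes of each list and comparison, not all of which are named. Alternatives were all 12 arrays with or without array weights, a replicate block, aligned medians, a repeated quantile normalization, dropping the 25% of genes with the lowest mean, trend with robust fitting, only the groups compared, every probe set as a feature, and leaving out each array. Sequences and promoter motifs were not analysed here.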

Additional observations from a re-analysis of the deposited data

Results flagged for a closer look

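The mutant's response to the medium, less that of the wild type, was -2.50 for PHO5, -1.80 for PHO11, -1.04 for PHM8 and -0.54 for PHO8 on the log2 scale. These 4 values are descriptions, since the interaction contains the comparison that chose the genes, and PHM8 fell short of the threshold in 8 of 11 fits that left out an array. Other phosphate pathway and related genes were listed with earlier results of these data known, so their interaction terms are no independent evidence either. These terms were -2.22 for PHO84, -1.87 for PHM6, -1.11 for VTC3 and -0.65 for VTC4. They were -0.56 for VTC1, -0.38 for GPP2, -0.37 for PHO81 and -0.32 for SPL2. The limma adjusted p ran from 8.16e-06 for PHO84 to 0.0469 for SPL2. The calls of GPP2, PHO81 and SPL2 ended when single arrays were left out, with limma adjusted p up to 0.0806, 0.114 and 0.143. That of SPL2 also ended with a replicate block (limma adjusted p = 0.0582) and with array medians aligned (0.0654).

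On the array titled an outlier, the 95th percentile of S. pombe probe sets was 10.78, above the 7.10 to 7.36 of the other arrays. PHO5 read 10.46 there, PHO11 9.14 and PHM8 10.18, below that percentile, and PHO8 read 11.08.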

How the results depend on the processing

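Calls between strains without ethanol, the comparison that chose the genes, and in the interaction that contains it are no evidence about the 4 probe sets and only show what the settings move. Of 20 differences (4 probe sets in 5 comparisons), all 20 kept their direction and call with array weights on 12 arrays, with a replicate block, without the lowest 25% of genes, with trend and robust fitting and with every probe set as a feature. PHM8's interaction lost its call with array medians aligned (-1.07) and repeated quantile normalization (-0.95), and PHO11 (-0.39) and PHM8 (0.67) in the ethanol medium with only the groups compared, where 0 members were called in either direction. With all 12 arrays at equal weight 12 of 20 kept their call. Lost were PHO11 (1.41) and PHO8 (0.56) without ethanol, PHO11 (-0.78) and PHM8 (0.34) between strains in the ethanol medium, PHO8's medium response in the mutant (0.45) and the interactions of PHO11 (-2.20), PHO8 (-0.96) and PHM8 (-1.38). Members called higher were then 2 without ethanol, 0 in the ethanol medium (0 lower) and 1 for the medium in the mutant, and 1 was lower in the interaction. Pathway genes called were 2 higher without ethanol, 0 and 0 between strains in the ethanol medium, 1 lower for the wild type's medium response, 3 higher and 1 lower for the mutant's and 2 lower in the interaction. Of 89 differences of list genes 26 kept their call, 54 lost it and 9 changed sign: GPP2 (-0.0352), APT1 (-0.0440), CPS1 (-0.11), PRB1 (-0.0449) and SNF2 (-0.0935) between strains in the ethanol medium, and PHO85 (-0.0399), PHO80 (0.12), PEP4 (-0.0386) and GCN5 (-0.11) for the mutant's medium response. The cause was not tested.

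Pathway genes lower in the mutant without ethanol, 0 in the report, were 6 with array weights, 2 with the replicate block, without the lowest 25% of genes or with only the groups compared, and 1 with repeated quantile normalization. In the ethanol medium 2 were lower with medians aligned or repeated quantile normalization, and 0 were called with only the groups compared. Without the lowest 25% of genes 0 were higher there. GIT1, the 1 called higher in the report, may have been dropped by that setting rather than have lost its call. The interaction had 2 higher with array weights. The replicate numbers share no stated batch, and deviations of same-numbered arrays from their group means correlated at -0.25 to 0.71 (11 of 15 pairs over 0.1). Arrays with other numbers correlated at -0.63 to 0.48 (9 of 30 pairs over 0.1). Deviations within a group are tied to each other, so these values cannot show whether there was a batch. For list genes the block ended the calls of APT1 (limma adjusted p = 0.0533) and SNF2 (0.0731) between strains in the ethanol medium and of SPL2 in the interaction (0.0582). With the replicate block PHO11 in the ethanol medium was -0.41 and PHM8 0.73.

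Leaving out each array gave 2.45 to 2.56 for PHO5, 1.37 to 1.47 for PHO11, 0.52 to 0.59 for PHO8 and 1.65 to 1.83 for PHM8 without ethanol. In the ethanol medium it gave -0.14 to 0.13, -0.45 to -0.32, 0.01 to 0.04 and 0.52 to 0.78 in the same order, with 0 to 1 members called higher and 0 to 1 lower. PHM8's interaction was -1.20 to -0.94 and lost its call in 8 of 11 cases; 3 to 4 members were lower in the interaction. Pathway genes called were 8 to 10 higher and 0 to 1 lower without ethanol, 0 to 1 higher and 0 to 2 lower in the ethanol medium, and 0 to 1 higher in the interaction. Where 1 array was left in the mutant with ethanol, it was assumed to vary like the other groups. Over all genes and all the settings above, calls between strains ranged from 13 to 2729 without ethanol (890 in the report). In the ethanol medium they ranged from 0 to 1326 (638). The medium responses had 408 to 3457 and 744 to 3635 (3312 and 3404), and the interaction 3 to 486 (66). Every lowest count came with all 12 arrays at equal weight. Of the highest counts, only 1326 came from leaving out an array. The replicate block gave 3457, and array weights on 12 arrays gave the others. With medians aligned, 64.2% of calls without ethanol were higher, against 50.6%.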
